A study of Mus musculus with 20 samples.

Results

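Among 20 mouse uteri sequenced on the evening before implantation, 10 addressed whether peripheral blood mononuclear cells (PBMCs) cultured without chorionic gonadotropin alter the RNA of a uterus exposed to RU486. They were the 5 mice of the PBMC group and the 5 mice of the implantation failure (IF) group, chosen by their sample labels. All were wild type B6D2F1 females of 8 to 12 weeks, mated, with the plug morning counted as day 0.5, and all received 3 mg/kg RU486 under the skin at 9:00 on day 3.5. The PBMC group had in addition received 50000 PBMCs of non-pregnant mice in each uterine horn on day 1.5, after 24 h in culture without hCG, while the IF group received no cells and no injection into the horn is described for it. RNA came from 1 horn of each mouse at 18:00 on day 3.5, and each mouse gave 1 library. Because a group given medium alone was not analysed here, the cells, the injection and the medium cannot be told apart in this comparison. The other 10 libraries, 5 untreated pregnant controls and 5 mice given RU486 and PBMCs cultured with 5 IU/mL hCG (PBMC-hCG), entered the estimate of the spread and are given beside the results.

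RU486 (mifepristone) blocks the progesterone receptor and, at higher exposure, the glucocorticoid receptor. Before implantation, progesterone holds back the growth-promoting action of estrogen on the uterine epithelium, and estrogen target genes are induced within hours once that brake is released. PBMCs are the lymphocytes and monocytes of blood, which secrete cytokines and matrix-degrading enzymes and are placed in the uterus before embryo transfer in some patients whose embryos repeatedly fail to implant.

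The values were in TPM, an abundance corrected for transcript length and scaled to the same total in every library, so the number of reads behind a value is unknown and no counting error is given. Between 22702 and 24097 genes were above 0 TPM in each of the 10 libraries. Uterine tissue was present in every one of them, since the summed TPM of 9 stromal markers lay between 8949.9 and 11320.5, that of 10 myometrial markers between 6232 and 7891, and that of 8 epithelial markers between 891 and 1255. Of 5 embryo markers, none could be tested, and their sum was at most 0.674 TPM. A difference in such bulk tissue can come from fewer cells of a type or from less RNA per cell, and these cannot be told apart. The labels name no batch. The p-values of limma set a difference between groups against the spread between mice, estimated over all 20 libraries.

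The PBMC and IF groups differed in a limited number of genes, and no single gene passed adjustment for the number of tests. Of 18706 genes above 0 TPM in all 20 libraries, 82 (0.438%) were differentially expressed genes (DEGs) by the study's cutoffs. These were at least a 2-fold difference together with a raw p under 0.05. The p here is that of limma on TPM, where the study used an exact test on read counts, so its DEGs are not the same set. Of the 82 DEGs, 29 were higher in the PBMC group (0.155%) and 53 were lower (0.283%). After Benjamini-Hochberg adjustment of limma's p-values the lowest was 0.273, so 0 genes passed, while 1271 (6.79%) were under 0.05 before adjustment. With only the IF and PBMC mice in the fit, the lowest adjusted p by limma was 0.544. In what follows, "called" means a raw p under 0.05 by limma, and the adjusted p is that over all genes tested. At that level the called genes were more often higher (766, 4.09%) than lower (505, 2.7%), but the balance turned when each library was centred on its median (621 higher and 684 lower) and narrowed after quantile normalization (696 and 601). The values of the groups did not overlap for 189 genes (1.01%), higher in 108 (0.577%) and lower in 81 (0.433%), and 11 of the DEGs were among them, 3 higher and 8 lower. The DEGs ran from a log2 fold change of -1.89 to 2.42. At the edge of the criterion, Mlph (-1.001) and Gm34801 (1.02) were just inside, and Fam13a (-0.998) and Gm15478 (0.994) just outside.

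**Figure D1:**
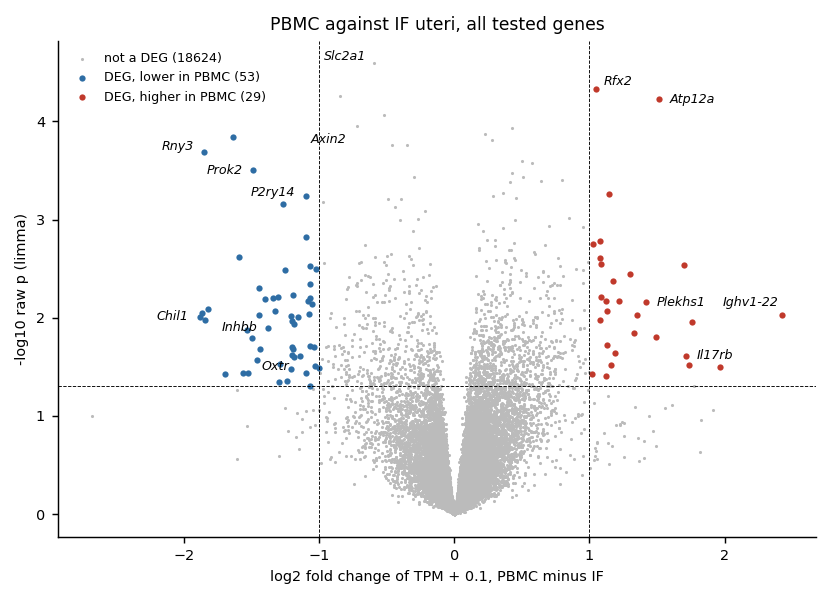
Log2 fold change between the PBMC and IF groups (x axis) against -log10 of limma's raw p (y axis) for 18706 genes, 1 point per gene, with dashed lines at a fold change of 2 and a raw p of 0.05. The 53 lower DEGs lie at the upper left and the 29 higher DEGs at the upper right, and some genes with small p-values, such as Slc2a1, fall inside the fold criterion.

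Of the gene lists, that of genes that estrogen induces early in the uterus had the most members called lower. Of its 19 tested genes, 6 were called lower (Rasd1, Gadd45g, Inhbb, Ramp3, Adamts1 and Sphk1) and none higher, against 2.7% lower over all genes. Without PBMC replicate 5 it had 8 called lower, fewer than the 11 of the unfolded protein response list. The median log2 fold change of the early estrogen list was -0.26 against 0.02 over all genes tested. Its log2 fold changes were negative for 13 members and positive for 6, up to 1.26. This list, like the others, was written with earlier results of these data known. The study that reported these data lists qPCR primers for Inhbb, Ramp3, Gadd45g, Adamts1 and Sphk1, which were called here. It also lists primers for Vegfa, Adamts4 and Bhlhe40, members of the list that were not called. The share of called genes in the list is therefore not an independent test. Inhbb, which encodes the beta B subunit shared by inhibin B and activin B (GRCm38, chr1:119415463-119422248), was at 376, 503, 423, 669.7 and 846 TPM in IF replicates 1 to 5, an order kept for every gene. In PBMC replicates 1 to 5 it was at 142, 152, 246, 127 and 562 TPM. Of the PBMC mice, 4 lay below every IF mouse, and replicate 5 lay inside the IF range. The log2 fold change was -1.38 (SE 0.50, adjusted p = 0.673) with a 95% interval of -2.43 to -0.33, a 2.60-fold lower level. For comparison, the mean was 16.5 TPM in the control and 167 TPM in the PBMC-hCG group.

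Gadd45g, a growth arrest gene induced by stress and hormones (chr13:51846675-51848475), was at 314, 491, 384, 458 and 821 TPM in the IF mice. In the PBMC mice it was at 129.5, 178, 281, 169 and 473 TPM. Again PBMC replicate 5 alone reached the IF range, and the log2 fold change was -1.08 (SE 0.36, adjusted p = 0.628). Ramp3, which turns the calcitonin receptor-like receptor into an adrenomedullin receptor, was at 199.8, 229, 266, 459.9 and 368 TPM in the IF mice. The PBMC mice were at 110.2, 111, 149, 98.1 and 311 TPM. The same 4 PBMC mice were below the lowest IF mouse, with a log2 fold change of -1.04 (SE 0.41, adjusted p = 0.701) that was not called without IF replicate 4 or PBMC replicate 4, at a log2 fold change of -0.91 to -0.88. Rasd1, a Ras-related GTPase inducible by steroids, was lower by a smaller factor (log2 fold change -0.66, adjusted p = 0.623), as were Adamts1, a secreted protease needed for ovulation (log2 fold change -0.55, adjusted p = 0.716), and Sphk1, which makes sphingosine 1-phosphate (log2 fold change -0.71, adjusted p = 0.724). The call was lost for Adamts1 without IF replicate 4 or 5 or PBMC replicate 1, 2 or 4, at a log2 fold change of -0.52 to -0.42 and for Sphk1 without IF replicate 2, 4 or 5 or PBMC replicate 1, 2 or 4, at a log2 fold change of -0.70 to -0.49. The number of lower genes in this list was 3 without IF replicate 4 or PBMC replicate 4 and 8 without PBMC replicate 5.

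Among 13 tested genes that estrogen induces later, 3 were called lower and none higher, against 2.7% lower and 4.09% higher over all genes, while the list's median was 0.06. These were Padi1 and Padi2, which convert arginine to citrulline in proteins, and Greb1, a cofactor of the estrogen receptor. Padi1 averaged 176 ± 60.03 TPM in the IF group and 97.6 ± 44.9 TPM in the PBMC group (mean ± SD of 5 mice), and the log2 fold change was -0.89 (SE 0.35, adjusted p = 0.701). Padi2 (log2 fold change -0.73, adjusted p = 0.667) and Greb1 (log2 fold change -0.85, adjusted p = 0.701) were lower by similar factors. The call was lost for Padi1 without IF replicate 4 or PBMC replicate 4, at a log2 fold change of -0.74 to -0.67 and for Greb1 without PBMC replicate 4, at a log2 fold change of -0.68. Leaving out PBMC replicate 4, the list had 3 called higher and 1 called lower. Secretory late targets in the list such as Ltf and Lcn2 were not called.

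The upstream sequences of 2 early genes that were lower in the same 4 PBMC mice are shown because the estrogen receptor can bind DNA directly. They are the 250 bases before the start site in RefSeq (GRCm38.p6), written 5′ to 3′ on the strand of the gene.
Inhbb, chr1:119422249-119422498, minus strand: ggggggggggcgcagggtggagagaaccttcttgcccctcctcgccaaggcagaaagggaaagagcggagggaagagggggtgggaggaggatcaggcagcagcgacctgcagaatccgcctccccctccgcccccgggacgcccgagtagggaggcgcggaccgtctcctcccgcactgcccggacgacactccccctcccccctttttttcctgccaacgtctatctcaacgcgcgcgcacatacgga
Gadd45g, chr13:51846425-51846674, plus strand: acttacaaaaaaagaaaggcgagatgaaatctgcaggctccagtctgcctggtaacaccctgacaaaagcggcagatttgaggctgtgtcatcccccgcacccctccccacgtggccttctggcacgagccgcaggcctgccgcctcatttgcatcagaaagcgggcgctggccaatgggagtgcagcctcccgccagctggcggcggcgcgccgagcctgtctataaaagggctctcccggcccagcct
Neither window held the estrogen response element (GGTCA and its reverse complement, 3 bases apart), its half-site GGTCA, the glucocorticoid response element (AGAACA and its reverse complement, 3 bases apart), the AP-1 motif TGANTCA or the TCF motif CTTTGA on either strand, so no letters are in capitals. The half-site also forms part of the full element. Windows of the same length held these motifs in 0.0639%, 35.2%, 0.00913%, 6.75% and 13.8% of 32851 promoters, in the same order. Of the windows of Ramp3, Axin2 and Oxtr, searched in the same way, only that of Oxtr held one of them, a GGTCA half-site 97 bases before the start used. The windows of Axin2 (chr11:108920099-108920348) and Oxtr (chr6:112489826-112490075) lie inside the gene spans given below. The start used for these genes is therefore inside the gene. A match or its absence describes only these letters.

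The oxytocin receptor gene Oxtr, which mediates contraction of the uterine muscle and is also expressed in the epithelium (chr6:112473683-112491035), was low in the same 4 PBMC mice as the early estrogen genes. It was at 86.95, 136, 81.9, 175 and 265 TPM in the IF mice. PBMC mice had values of 44.6, 44.4, 69.3, 35.1 and 176 TPM. PBMC replicates 1 to 4 lay below every IF mouse, and replicate 5 had more than all but 1 of them. The log2 fold change was -1.14 (SE 0.47, adjusted p = 0.701), a 2.21-fold lower level that was no longer called without IF replicate 4 or 5 or PBMC replicate 1, 2 or 4, at a log2 fold change of -1.05 to -0.90. Without PBMC replicate 5 it was -1.53. The mean was 9.83 TPM in the control and 38.4 TPM in the PBMC-hCG group. Of 17 contraction genes tested, Oxtr was the only one called lower, against 2.7% over all genes, and 2 were called higher, against 4.09%. They were Ptger3, a receptor for prostaglandin E2 (log2 fold change 0.33, adjusted p = 0.701, not called without IF replicate 3, at a log2 fold change of 0.20), and Ryr2, a calcium release channel listed at 0.557 and 0.829 TPM in the IF and PBMC groups (log2 fold change 0.57, adjusted p = 0.731, not called without IF replicate 2, 4 or 5 or PBMC replicate 1, 2, 3 or 5, at a log2 fold change of 0.42 to 0.60). The connexin gene Gja1 and the prostaglandin F receptor gene Ptgfr were not called.

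**Figure D2:**
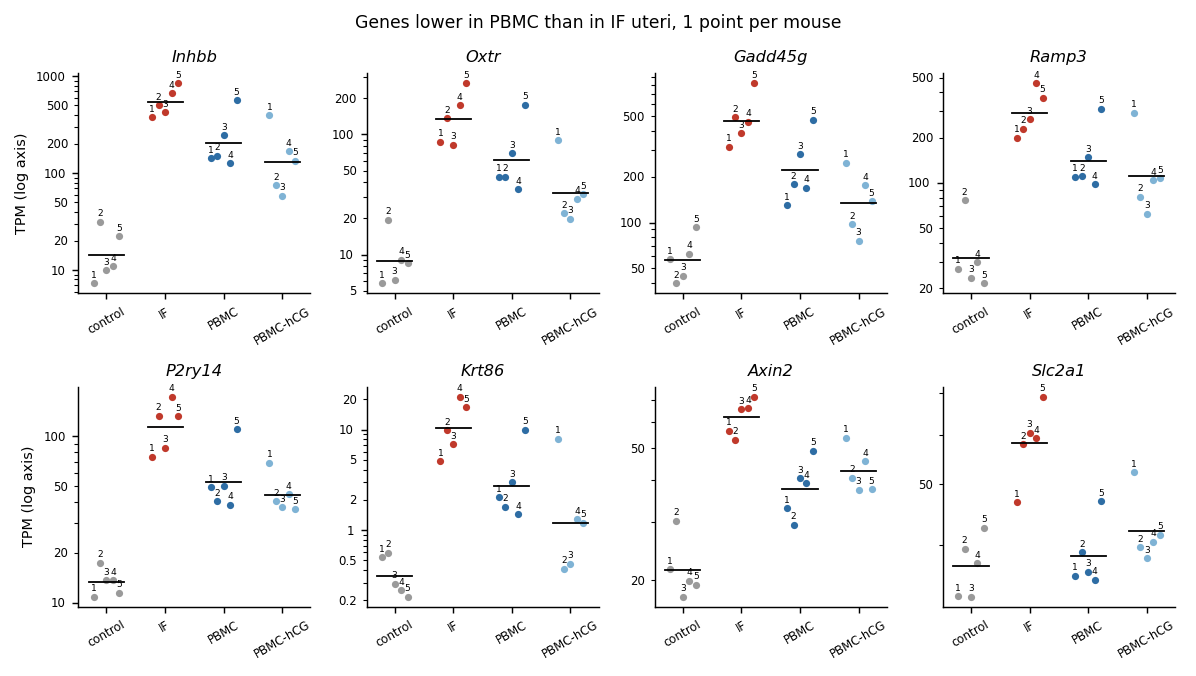
TPM on a log axis for 8 genes with lower levels in the PBMC group, in all 4 groups of mice (1 point per mouse, numbered by replicate, line at the geometric mean, 5 mice per group). PBMC replicate 5 stands at the top of its group in all 8 panels, and Axin2 is the only one of the 8 without overlap between IF and PBMC mice.

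Several receptors and secreted peptides were among the lower DEGs. P2ry14, a receptor for UDP-sugars that cells release, had the lowest raw p among the lower protein-coding DEGs after 4930539E08Rik and Prok2. It was at 75.5, 133, 85.4, 173 and 132 TPM in the IF mice. In the PBMC mice it was at 49.3, 40.7, 50.4, 38.8 and 109.9 TPM, with a log2 fold change of -1.10 (SE 0.27, adjusted p = 0.400). Only PBMC replicate 5 was inside the IF range. The related ATP and UTP receptor gene P2ry2 was at 4.74, 6.95, 8.95, 9.39 and 15.8 TPM and 2.42, 2.81, 3.58, 2.18 and 9.75 TPM in the same order (log2 fold change -1.25, SE 0.37, adjusted p = 0.623). Nppc, which encodes C-type natriuretic peptide, averaged 30.5 ± 11.99 TPM in the IF group and 14.8 ± 11.5 TPM in the PBMC group (log2 fold change -1.21, adjusted p = 0.723), and Nmb, which encodes the peptide neuromedin B, averaged 42.6 ± 27.01 TPM in the IF group and 15.8 ± 5.26 TPM in the PBMC group (log2 fold change -1.24, adjusted p = 0.724). Both calls were fragile to single mice. The call was lost for Nppc without IF replicate 2, 4 or 5 or PBMC replicate 1, 2 or 4, at a log2 fold change of -1.15 to -1.01 and for Nmb without IF replicate 2, 3 or 5 or PBMC replicate 1, 2, 3 or 4, at a log2 fold change of -1.27 to -0.94. Prok2, which encodes the secreted prokineticin 2, was low in both groups, at 1.10, 1.02, 1.39, 2.34 and 3.57 TPM in the IF mice. The PBMC mice were at 0.260, 0.632, 0.568, 0.358 and 1.19 TPM, and the gene had a log2 fold change of -1.49 (SE 0.34, adjusted p = 0.351). Gpr83, a G protein-coupled receptor, varied over a wide range in the IF mice, with 1.68, 4.65, 1.05, 12.2 and 10.7 TPM against 0.904, 1.04, 1.06, 0.317 and 3.73 TPM in the PBMC mice, and had a log2 fold change of -1.85 (SE 0.65, adjusted p = 0.667). P2ry14, P2ry2, Nppc and Nmb were chosen after their values had been seen.

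Krt81, Krt86 and Krt87, hair-type keratin genes that are neighbours on chromosome 15, were lower DEGs, as were 0.283% of all genes. Hair-type keratin genes were not examined as a list. Krt86 was at 4.82, 9.85, 7.18, 21.3 and 16.6 TPM in the IF mice. PBMC mice had values of 2.14, 1.71, 3.01, 1.44 and 9.99 TPM, and the log2 fold change was -1.87 (SE 0.64, adjusted p = 0.667). PBMC replicate 5 exceeded 3 of the IF mice, and the other 4 PBMC mice were below all of them. Krt81 and Krt87, named after their values had been seen, had log2 fold changes of -1.33 and -1.40. These paralogs are similar in sequence, so reads can be divided among them and the values do not count as independent. Of 6 tested genes of a list of small proline-rich and keratinization genes, Krt86 was the only one called, against 2.7% lower over all genes. The list's median log2 fold change was 0.79, in the other direction. The remaining 14 members were not above 0 TPM in every library.

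No list of Wnt pathway genes was fixed for the comparison, and the 3 described here do not stand for the pathway. Axin2, named for its small p, and Wnt7b were called lower, as were 2.7% of all genes. Wnt4, named whatever its values, was not called. Axin2, a feedback inhibitor that beta-catenin induces and a common readout of canonical Wnt signaling (chr11:108917828-108950783), was at 56.5, 53.03, 65.7, 66.04 and 71.6 TPM in the IF mice. In the PBMC mice it was at 33.02, 29.4, 40.7, 39.2 and 49.2 TPM. Every PBMC mouse was below every IF mouse, with a log2 fold change of -0.72 (SE 0.15, adjusted p = 0.273) and a 95% interval of -1.03 to -0.41. Wnt7b, an epithelial ligand named after its values had been seen, averaged 26.5 ± 10.5 TPM in the IF group and 10.6 ± 6.39 TPM in the PBMC group (log2 fold change -1.46, adjusted p = 0.701) and was not called without IF replicate 3 or 5 or PBMC replicate 1 or 4, at a log2 fold change of -1.38 to -1.08. Wnt4, a ligand needed for decidualization, was not called, at 25.5 ± 11.8 TPM in the IF group and 25.8 ± 17.1 TPM in the PBMC group (log2 fold change -0.07, adjusted p = 0.983, 95% interval -0.93 to 0.80), with no fixed sign when single mice were left out. Its values were 27.1, 25.2, 11.4, 19.99 and 43.6 TPM in the IF mice and 16.3, 18.6, 28.01, 11.7 and 54.4 TPM in the PBMC mice, so that PBMC replicate 5 was the highest of the 10.

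Several genes with small raw p-values on the lower side had fold changes under the DEG criterion. Slc2a1, the glucose transporter GLUT1 (chr4:119108745-119137330), had the smallest of all genes tested. It was at 46.8, 57.98, 60.4, 59.3 and 69.01 TPM in the IF mice. The PBMC mice were at 35.8, 38.97, 36.3, 35.3 and 47.04 TPM. Only PBMC replicate 5 and IF replicate 1 crossed, at nearly the same value, and the log2 fold change was -0.60 (SE 0.11, adjusted p = 0.273), a 1.51-fold lower level. Ctr9, a subunit of the PAF1 complex that travels with RNA polymerase II, averaged 143 ± 18.6 TPM in the IF group and 99.2 ± 12.9 TPM in the PBMC group (log2 fold change -0.52, adjusted p = 0.273). Slc7a5, a transporter of large neutral amino acids, averaged 64.2 ± 14.4 TPM in the IF group and 40.8 ± 11.5 TPM in the PBMC group (log2 fold change -0.66, adjusted p = 0.623), and Foxl2, a forkhead factor of the uterine stroma and muscle, 67.8 ± 13.6 TPM in the IF group and 48.2 ± 11.6 TPM in the PBMC group (log2 fold change -0.50, adjusted p = 0.623), both named after their values had been seen. Mycn, a growth-promoting transcription factor also named afterwards, did not overlap between the groups, at 6.26, 9.29, 12.7, 10.5 and 10.03 TPM in the IF mice and 6.22, 3.36, 5.83, 2.94 and 4.95 TPM in the PBMC mice. Its log2 fold change of -1.07 (SE 0.42, adjusted p = 0.701) was not called without PBMC replicate 4, at a log2 fold change of -0.93.

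Sterol synthesis genes were called in part, all of them lower. Of 23 tested genes of sterol and fatty acid synthesis, 3 were called lower and none higher, against 2.7% lower over all genes, with a median of -0.18. Among these were Insig1, which holds the sterol sensor in the endoplasmic reticulum (log2 fold change -0.35, adjusted p = 0.693), and Cyp51, a lanosterol demethylase (log2 fold change -0.48, adjusted p = 0.734). The call was lost for Insig1 without IF replicate 5, at a log2 fold change of -0.27 and for Cyp51 without IF replicate 2, 4 or 5 or PBMC replicate 1, 2, 3 or 4, at a log2 fold change of -0.49 to -0.31. For the list, 1 gene was called lower without IF replicate 5 and 5 were without IF replicate 1 or without IF replicate 3.

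The unfolded protein response showed a like pattern of small differences in 1 direction. Of its 19 tested genes, 16 had negative log2 fold changes, where 55.4% of all genes tested had positive ones. Of the list, 3 were called lower, against 2.7% over all genes, and the median was -0.29. Chac1, which degrades glutathione and is induced by amino acid and endoplasmic reticulum stress, was at 2.32, 3.04, 3.44, 3.15 and 4.06 TPM in the IF mice. In the PBMC mice it was at 1.94, 1.47, 1.55, 2.18 and 2.28 TPM. The groups did not overlap, with a log2 fold change of -0.73 (SE 0.23, adjusted p = 0.623). Trib3, a pseudokinase induced by the same stress (log2 fold change -0.42, adjusted p = 0.724), and Herpud1, which serves protein removal from the endoplasmic reticulum (log2 fold change -0.39, adjusted p = 0.724), were the other two. The call was lost for Trib3 without IF replicate 2, 3, 4 or 5 or PBMC replicate 2, 3 or 4, at a log2 fold change of -0.42 to -0.32 and for Herpud1 without IF replicate 3 or 5 or PBMC replicate 1, 2, 3 or 4, at a log2 fold change of -0.40 to -0.24. The count for the list depended on single mice, with 11 called lower without PBMC replicate 5 and 7 without IF replicate 1, and with 1 called lower without IF replicate 3 or 5 or PBMC replicate 2, 3 or 4.

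Large fold changes on the lower side were also seen in other genes that varied widely between the IF mice. Chil1, a secreted chitinase-like protein, was at 2.28, 4.63, 17.98, 5.41 and 15.9 TPM in the IF mice. The PBMC mice were at 1.70, 1.64, 1.19, 2.44 and 2.42 TPM, with a log2 fold change of -1.89 (SE 0.66, adjusted p = 0.667). IF replicates 3 and 5 were the highest, and IF replicate 1 lay inside the PBMC range. Atp6v0d2, a subunit of the proton pump that acidifies vesicles, was at 11.7, 30.7, 61.2, 22.01 and 39.98 TPM in the IF mice. PBMC mice had values of 5.48, 10.003, 6.38, 8.77 and 10.9 TPM (log2 fold change -1.82, SE 0.62, adjusted p = 0.667). Its groups did not overlap, although IF replicate 1 was close to the highest PBMC mouse. Atp13a4, a P-type cation pump (log2 fold change -1.60, adjusted p = 0.623), Hal, which breaks down histidine (log2 fold change -1.50, adjusted p = 0.701), Atg9b, a membrane protein of autophagy (log2 fold change -1.70, adjusted p = 0.724), ccdc198 (log2 fold change -1.53, adjusted p = 0.724) and 4930539E08Rik (log2 fold change -1.64, adjusted p = 0.273) were further DEGs of this kind. The calls were lost for Hal without IF replicate 3, at a log2 fold change of -1.21, for Atg9b without IF replicate 2, 3 or 5 or PBMC replicate 1, 2, 3 or 4, at a log2 fold change of -1.70 to -1.21 and for ccdc198 without IF replicate 1 or 3 or PBMC replicate 1, 2 or 5, at a log2 fold change of -1.56 to -1.06. Of 9 tested channels and pumps that set the volume of luminal fluid, 2 were called lower, against 2.7% over all genes, and none higher. These were the water channel gene Aqp5 (log2 fold change -0.79, adjusted p = 0.701) and the bicarbonate transporter gene Slc4a4 (log2 fold change -0.30, adjusted p = 0.716). They were not called for Aqp5 without IF replicate 3 or 5 or PBMC replicate 5, at a log2 fold change of -0.74 to -0.59 and for Slc4a4 without IF replicate 4 or 5 or PBMC replicate 1 or 4, at a log2 fold change of -0.27 to -0.21. Aqp5 was at 84.5, 124.5, 235, 107 and 155 TPM in the IF mice. In the PBMC mice it was at 88.8, 77.4, 80.997, 71.1 and 65.97 TPM, so that only IF replicate 1 lay among the PBMC mice.

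Among the genes higher in the PBMC group, Atp12a had the largest fold change of the 3 DEGs without overlap. It encodes the catalytic subunit of a proton and potassium pump (chr14:56364669-56388551) and was at 3.49, 1.07, 3.22, 0.993 and 2.12 TPM in the IF mice. The PBMC mice were at 6.71, 4.63, 7.90, 4.41 and 5.47 TPM. The log2 fold change was 1.51 (SE 0.29, adjusted p = 0.273) with a 95% interval of 0.90 to 2.13, a 2.86-fold higher level that held its call with any single mouse left out. The mean was 13.4 TPM in the control and 4.14 TPM in the PBMC-hCG group. Rfx2, a transcription factor of ciliated cells, was at 6.81, 3.30, 7.50, 5.30 and 6.39 TPM in the IF mice. PBMC mice had values of 13.2, 12.96, 12.5, 8.72 and 12.3 TPM (log2 fold change 1.05, SE 0.20, adjusted p = 0.273). Its PBMC mice were all above the IF mice, and it had the smallest raw p on the higher side. Fam102b, Tmem43 and Tmem198b were also higher without overlap, by small amounts (log2 fold changes 0.43, 0.23 and 0.28).

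For Il17rb, Plekhs1, Fxyd4 and Calb1, IF replicate 5 was the lowest of the 10 mice and IF replicate 1 the highest of its group. Il17rb, a subunit of the receptor for interleukin 25, was at 75.5, 29.8, 13.3, 36.4 and 6.86 TPM in the IF mice and at 102, 78.3, 64.9, 111 and 50.5 TPM in the PBMC mice (log2 fold change 1.71, SE 0.70, adjusted p = 0.701). The groups overlapped at IF replicate 1, and the gene was not called without IF replicate 3 or 5 or PBMC replicate 4, at a log2 fold change of 1.27 to 1.59. Plekhs1, a pleckstrin homology domain protein, was at 113, 58.9, 50.2, 52.6 and 15.4 TPM in the IF mice and at 186, 122, 121, 163 and 83.05 TPM in the PBMC mice (log2 fold change 1.42, SE 0.47, adjusted p = 0.628), and IF replicate 1 exceeded PBMC replicate 5. Fxyd4, a regulator of the sodium pump, was at 37.9, 13.7, 16.8, 16.4 and 7.82 TPM and 39.2, 40.04, 34.03, 35.2 and 30.5 TPM in the same order (log2 fold change 1.13, SE 0.39, adjusted p = 0.667). Here 4 IF mice lay below the lowest PBMC mouse, and IF replicate 1 lay inside the PBMC range. Calb1, a calcium-binding protein of the uterine epithelium, averaged 9.86 ± 8.11 TPM in the IF group and 17.3 ± 4.14 TPM in the PBMC group (log2 fold change 1.19, adjusted p = 0.701, not called without IF replicate 2 or 5 or PBMC replicate 4, at a log2 fold change of 0.82 to 1.08). Bcl2l15, a member of the BCL2 family, averaged 0.858 ± 0.896 TPM in the IF group and 2.48 ± 1.34 TPM in the PBMC group (log2 fold change 1.76, adjusted p = 0.673), and Tppp, which stabilizes microtubules and was named after its values had been seen, 8.95 ± 3.64 TPM in the IF group and 17.6 ± 4.65 TPM in the PBMC group (log2 fold change 1.03, adjusted p = 0.623). Gm35572, a long noncoding RNA, was listed at 1.06 and 2.70 TPM (log2 fold change 1.50, adjusted p = 0.701, not called without IF replicate 5, at a log2 fold change of 1.12).

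**Figure D3:**
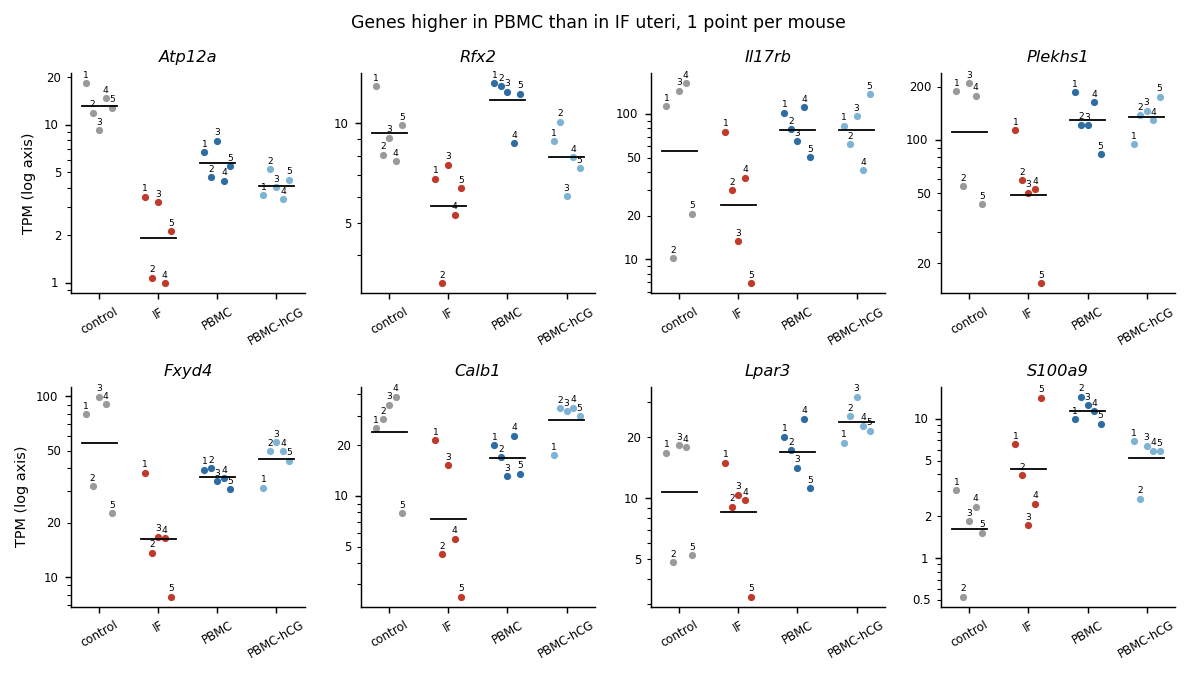
TPM on a log axis for 8 genes with higher levels in the PBMC group, in all 4 groups of mice (1 point per mouse, numbered by replicate, line at the geometric mean, 5 mice per group). IF replicate 5 is the lowest of its group for Il17rb, Plekhs1, Fxyd4, Calb1 and Lpar3, while for S100a9 it is the highest, and Atp12a and Rfx2 show no overlap between IF and PBMC mice.

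Of 20 tested genes required for implantation, 1 was called higher, against 4.09% over all genes, and 1 lower, against 2.7%. The higher one was Lpar3, the lysophosphatidic acid receptor that sets the timing and spacing of embryos. The lower one was Fosl2, a subunit of AP-1. Lpar3 was at 14.96, 9.08, 10.4, 9.80 and 3.27 TPM in the IF mice and at 20.1, 17.2, 14.2, 24.7 and 11.2 TPM in the PBMC mice (log2 fold change 0.97, SE 0.40, adjusted p = 0.701), and was not called without IF replicate 5 or PBMC replicate 1 or 4, at a log2 fold change of 0.63 to 0.91. Fosl2 was at 146, 151, 140.3, 119 and 180.3 TPM and 77.3, 84.5, 149.7, 97.2 and 149 TPM in the same order (log2 fold change -0.44, SE 0.19, adjusted p = 0.701), and was not called without IF replicate 5 or PBMC replicate 1, 2 or 4, at a log2 fold change of -0.41 to -0.33. PBMC replicates 3 and 5 were as high as the IF mice for Fosl2, and the other 3 PBMC mice were below all of them. Lif, the cytokine that permits attachment, was at 6.94, 5.75, 2.30, 4.91 and 4.72 TPM in the IF mice and at 3.75, 1.95, 5.70, 2.46 and 3.83 TPM in the PBMC mice, and its log2 fold change of -0.48 (adjusted p = 0.900) had a 95% interval of -1.86 to 0.91. Msx1, an epithelial homeobox gene whose loss accompanies receptivity, had a log2 fold change of 0.26 (adjusted p = 0.797, 95% interval -0.14 to 0.66) and Stat3, which transmits the LIF signal, of -0.12 (adjusted p = 0.853, 95% interval -0.39 to 0.14).

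The receptor that RU486 blocks was itself lower in the PBMC mice. Pgr, the progesterone receptor gene, was at 136, 141, 138, 168 and 167 TPM in the IF mice and at 105, 108, 121, 102 and 149.5 TPM in the PBMC mice, and 4 of the PBMC mice lay below every IF mouse. The log2 fold change was -0.37 (SE 0.14, adjusted p = 0.701), a 1.29-fold lower level, and the mean was 45.9 TPM in the control and 114 TPM in the PBMC-hCG group. Of 19 tested progesterone receptor targets, none was called in either direction, and their median was 0.08. These included Ihh, the epithelial hedgehog ligand (log2 fold change 0.34, adjusted p = 0.925, 95% interval -0.87 to 1.54), and Hand2, a stromal repressor of growth factor signals (log2 fold change -0.31, adjusted p = 0.746). Without PBMC replicate 5, Hand2 would be called, at -0.36. Esr1, the estrogen receptor alpha gene, was at 163, 139, 165, 159 and 146 TPM in the IF mice and at 166, 152, 151, 141 and 143 TPM in the PBMC mice, and its log2 fold change of -0.04 had a 95% interval of -0.16 to 0.09 (adjusted p = 0.921). Esr2 was listed at 0 TPM in part of the libraries and was not tested.

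Nr3c1, the glucocorticoid receptor gene, was at 24.4, 23.4, 27.4, 23.8 and 19.9 TPM in the IF mice and at 28.9, 26.7, 27.1, 28.2 and 22.8 TPM in the PBMC mice. Its log2 fold change of 0.17 (SE 0.08, adjusted p = 0.731) amounted to a 1.13-fold higher level and was at the edge of the criterion. It was not called without IF replicate 1, 2, 4 or 5 or PBMC replicate 1, 2, 3 or 4, at a log2 fold change of 0.11 to 0.18 and reached 0.23 without PBMC replicate 5. Of 21 glucocorticoid target genes tested, 1 was called higher, against 4.09% over all genes, and 2 lower, against 2.7%. The list's median was -0.06. Mt1, a metallothionein, averaged 236 ± 47.9 TPM in the IF group and 285 ± 23.9 TPM in the PBMC group (log2 fold change 0.29, adjusted p = 0.701). Cebpb, a transcription factor of decidualization, averaged 113 ± 40.2 TPM in the IF group and 66.8 ± 32.9 TPM in the PBMC group (log2 fold change -0.82, adjusted p = 0.701), and Fam107a, a stress-induced actin-bundling protein, 2.62 ± 0.736 TPM in the IF group and 1.74 ± 0.287 TPM in the PBMC group (log2 fold change -0.54, adjusted p = 0.701). The calls were lost for Mt1 without IF replicate 5 or PBMC replicate 4, at a log2 fold change of 0.20 to 0.25, for Cebpb without IF replicate 5 or PBMC replicate 1, at a log2 fold change of -0.64 to -0.61 and for Fam107a without IF replicate 3 or 5 or PBMC replicate 2, at a log2 fold change of -0.48 to -0.43. Fkbp5 and Tsc22d3, standard readouts of the receptor, were not called.

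Few markers of the injected cell types were called in the uterus at this time. Of 9 T cell markers tested, 1 was called higher (Cd5), against 4.09% over all genes, and it was not called without IF replicate 3 or 4 or PBMC replicate 3. Of the tested markers of B cells and plasma cells (4), natural killer cells (9) and monocytes, macrophages and dendritic cells (13), none was called. The summed TPM of the T cell list ranged from 33.3 to 57.3 in the IF mice and from 37.0 to 52.8 in the PBMC mice, and that of the monocyte list from 796 to 1047 and from 862 to 975. The B cell genes Ms4a1 and Pax5 were at 0 TPM in some libraries and were not tested. Ms4a1 was at 0, 0.283, 0.0735, 0.0359 and 0.0796 TPM in the IF mice and at 0, 0, 0, 0.0725 and 0.120 TPM in the PBMC mice.

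Both calprotectin genes, S100a8 and S100a9, whose products fill the cytoplasm of neutrophils and are also made by monocytes, were DEGs. S100a9 was at 6.58, 3.91, 1.72, 2.46 and 14.1 TPM in the IF mice and at 9.85, 14.4, 12.5, 11.3 and 9.16 TPM in the PBMC mice. The PBMC mice were uniform and lay above 4 of the IF mice, and IF replicate 5 was among the highest, and the log2 fold change was 1.35 (SE 0.47, adjusted p = 0.667). S100a8 was at 4.76, 1.91, 1.58, 1.45 and 9.68 TPM and 5.14, 10.3, 7.09, 5.69 and 5.47 TPM in the same order (log2 fold change 1.13, SE 0.44, adjusted p = 0.701), and was not called without IF replicate 2, 3 or 4 or PBMC replicate 2, at a log2 fold change of 0.89 to 0.99. The neutrophil list as a whole summed to 100.4 to 207 TPM in the IF mice and to 137 to 260.0 TPM in the PBMC mice. Of its 3 tested genes, 2, these DEGs, were called higher, against 4.09% over all genes. Most of the summed TPM was Retnlg, the third tested gene. Retnlg was at 88.4, 200.4, 155, 181 and 107 TPM in the IF mice and at 174, 183, 115, 242 and 126 TPM in the PBMC mice, while Ly6g, Cxcr2 and Mmp8 were under 1 TPM in all 10 and were not tested. Whether the number of neutrophils differed was not tested.

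The 3 immunoglobulin segments among the higher DEGs were Ighv1-22, Igkv17-121 and Iglj3. Of 21 variable segments tested, 2 were higher DEGs, and of 19 joining segments 1 was, against 0.155% over all genes. The T cell receptor segment Trbd1 went the other way, as a lower DEG (log2 fold change -1.19, adjusted p = 0.701). Ighv1-22, a heavy chain variable segment, was at 3.34, 0.438, 0.404, 1.95 and 0.310 TPM in the IF mice and at 8.61, 1.80, 4.09, 5.76 and 8.52 TPM in the PBMC mice (log2 fold change 2.42, SE 0.84, adjusted p = 0.667). It had the largest log2 fold change of all DEGs, and IF replicates 1 and 4 reached the PBMC range. The controls were at 39.5, 11.4, 51.5, 46.1 and 7.87 TPM. Igkv17-121 (log2 fold change 1.97, adjusted p = 0.723) was not called without IF replicate 2, 3 or 5 or PBMC replicate 1 or 2, at a log2 fold change of 1.41 to 1.87, and Iglj3 (log2 fold change 1.73, adjusted p = 0.716) was not called without IF replicate 3 or 5 or PBMC replicate 5, at a log2 fold change of 1.04 to 1.48. Such segments differ between plasma cell clones of single mice and are near copies of each other, and the plasma cell gene Jchain was at 157, 28.5, 11.8, 37.7 and 2.66 TPM in the IF mice and at 48.3, 22.8, 85.5, 19.2 and 111 TPM in the PBMC mice, a wide range in both.

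Of 20 tested genes of interleukin and tumor necrosis factor pathways, 1 was called lower, against 2.7% over all genes, and none higher, against 4.09%. The lower one was Il17ra, the common subunit of the IL-17 receptors, and the list's median was 0.01. Il17ra was at 33.4, 51.7, 36.8, 47.9 and 57.3 TPM in the IF mice and at 27.8, 30.6, 28.9, 28.05 and 43.2 TPM in the PBMC mice (log2 fold change -0.51, SE 0.15, adjusted p = 0.623). Again PBMC replicates 1 to 4 lay below every IF mouse and replicate 5 did not. Of 24 chemokine genes tested, Ccl25 was the only one called, on the lower side, against 2.7% over all genes. It averaged 2.34 ± 0.232 TPM in the IF group and 1.73 ± 0.309 TPM in the PBMC group (log2 fold change -0.42, adjusted p = 0.701, not called without IF replicate 1 or 5 or PBMC replicate 1 or 3, at a log2 fold change of -0.39 to -0.36). None of 16 genes of antigen presentation, 15 of complement, 16 immediate early and heat shock genes, 17 clock genes or 25 cell cycle genes was called. All 16 antigen presentation genes had positive log2 fold changes, with a median of 0.16 that was 0.13 after median centring.

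The absence of a call extended to all 24 interferon-stimulated genes, whose median was -0.00 between the PBMC and IF groups. Between the PBMC-hCG and PBMC groups, a comparison that shares the PBMC mice, 21 of the 24 were called higher with a median of 0.92, against 8.66% called higher over all genes in that comparison. Ifit1, an antiviral gene named after its values had been seen, averaged 27.5 TPM in the IF group and 30.4 TPM in the PBMC group, and its log2 fold change from PBMC to PBMC-hCG was 1.44. That comparison gave 167 DEGs (0.893%), 72 higher (0.385%) and 95 lower (0.508%), and 2 genes (0.0107%) passed adjustment by limma. Wnt4 (-1.33) and Ihh (-1.44), which were not called between PBMC and IF, were called lower there, as were 7.51% of all genes.

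The matrix and vessel lists each held 2 genes called lower, against 2.7% over all genes. Of 30 matrix and protease genes, 1 was also called higher, against 4.09%. Lox, which crosslinks collagen, and Adamts1 were the lower ones. Mmp14, a membrane-bound protease, was the higher one, by a small amount (log2 fold change 0.08, adjusted p = 0.724). Of 18 angiogenic genes, Ramp3 and its partner ligand Adm (adrenomedullin; log2 fold change -0.47, adjusted p = 0.730) were called lower and none higher. They were not called for Lox without IF replicate 2, at a log2 fold change of -0.28, for Mmp14 without IF replicate 1, 2 or 3 or PBMC replicate 1, 2, 3, 4 or 5, at a log2 fold change of 0.07 to 0.09 and for Adm without IF replicate 3, 4 or 5 or PBMC replicate 1, 2, 3 or 4, at a log2 fold change of -0.47 to -0.32. Among markers of tissue cell types, 1 of 10 myometrial (Lmod1), 1 of 8 endothelial (Emcn) and 1 of 3 mesothelial genes (Lrrn4) were called higher, and 1 of 6 ovary and oviduct genes (Ovgp1) was called lower, against 4.09% higher and 2.7% lower over all genes. The myometrial list had no called gene after median centring, with the replicate block, or without IF replicate 2, 3 or 5 or PBMC replicate 1, 2 or 3. The mesothelial list had none without IF replicate 3 or PBMC replicate 1 and none after quantile normalization or with array weights. The ovary and oviduct list had none called lower without IF replicate 3 or 5, and 1 called higher without IF replicate 3. None of the tested epithelial (8), glandular (5), stromal (9), mast cell (6), eosinophil (3), red cell (5) or adipose (2) markers was called, although the summed glandular markers ranged from 2635 to 12203 TPM in the IF mice and from 1677 to 3746 TPM in the PBMC mice. Of 39 lists in all, 20 had at least 1 called member, 18 had none and 1, the embryo list, had no tested member. The 7 reference genes were not called, with log2 fold changes of -0.01 for Gapdh and 0.01 for Rplp0.

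**Figure D4:**
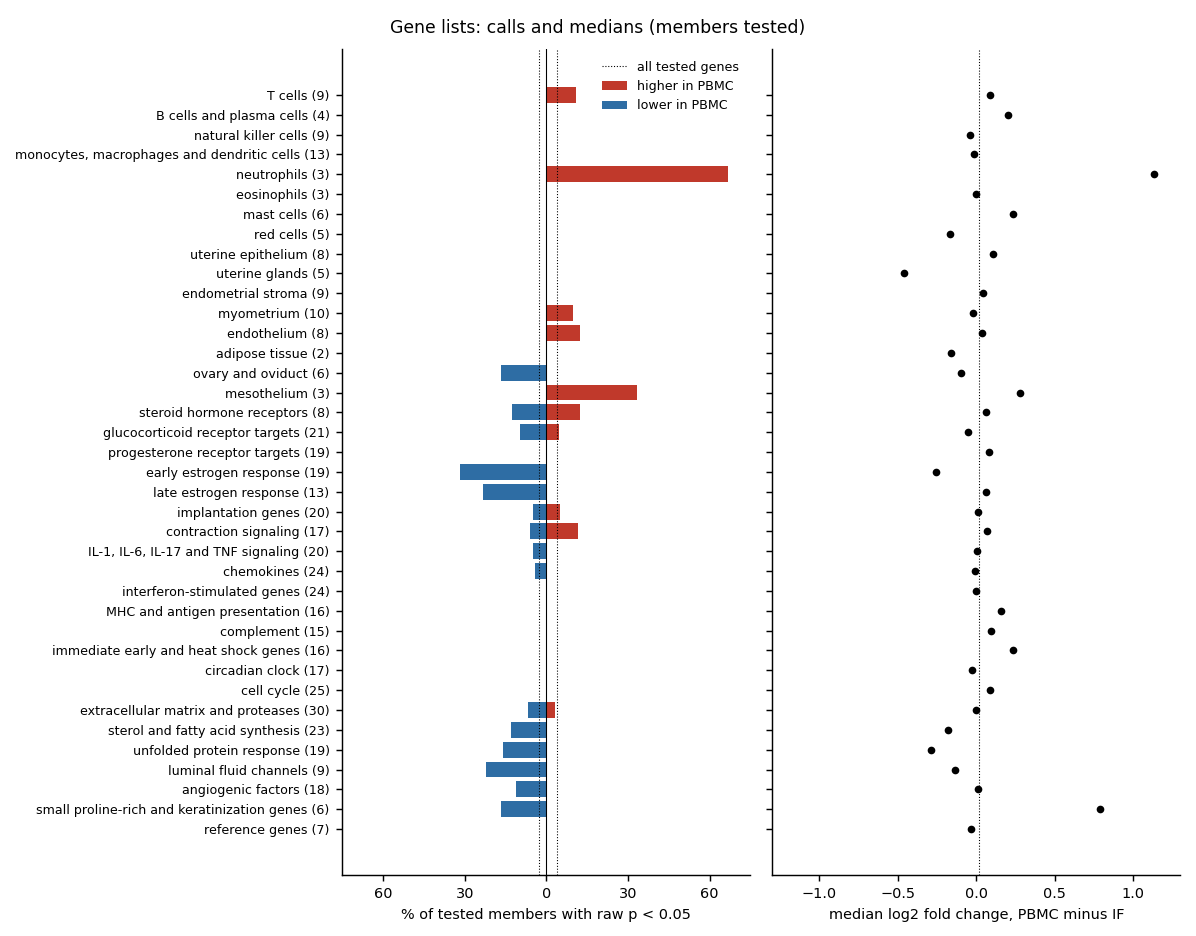
Share of tested members with a raw p under 0.05 (left, percent, higher to the right and lower to the left) and median log2 fold change between PBMC and IF (right) for 38 gene lists, with the number of tested members in brackets and dotted lines at the values over all 18706 genes. Early and late estrogen genes have the longest bars on the lower side, and the neutrophil bar on the higher side rests on 2 of 3 genes.

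Small noncoding RNAs made up more of the lower DEGs than of the genes tested. Structural RNAs (small nuclear, nucleolar, cytoplasmic, guide and Y RNAs and RNase components) were 267 of the genes tested, and 10 of them were DEGs, all lower (3.75%, against 0.283% over all genes), with a median log2 fold change of -0.23. Their summed level was 2382 to 3309 TPM in the IF mice and 1636 to 2958 TPM in the PBMC mice, and the lowest was PBMC replicate 4. These RNAs are mostly without a poly(A) tail and shorter than a usual fragment, and the libraries were made from polyadenylated RNA, so how much of them is kept was not tested. The one with the smallest p was Rny3, a Y RNA that binds the Ro60 protein, at 6.11, 5.61, 3.90, 7.66 and 7.16 TPM in the IF mice and 2.56, 0.540, 1.58, 2.28 and 1.82 TPM in the PBMC mice. Every PBMC mouse was below every IF mouse, with a log2 fold change of -1.85 (SE 0.40, adjusted p = 0.296). Its sequence is given because its length of 102 bases is part of that limit (GENCODE vM21, DNA letters, no part in capitals).
Rny3: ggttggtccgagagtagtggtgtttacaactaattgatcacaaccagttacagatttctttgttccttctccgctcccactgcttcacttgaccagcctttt
Rn7s1 and Rn7s2, near-identical copies of the 7SL RNA of the signal recognition particle, had log2 fold changes of -1.05 and -1.07 and cannot be told apart by their reads. PBMC replicates 1 and 2 lay inside the IF range for Rn7s1, at 70.9 and 68.2 TPM against 49.8 to 109 TPM. PBMC replicates 3 to 5 were below it, at 32.6, 18.7 and 19.3 TPM. The small nuclear RNA Rnu1a1 (log2 fold change -1.21, adjusted p = 0.667) and the small nucleolar RNAs Snord69 (log2 fold change -1.07, adjusted p = 0.623), Snord14c (log2 fold change -1.29, adjusted p = 0.715) and LOC115487645 (log2 fold change -1.54, adjusted p = 0.685) were also lower DEGs. Of these, Snord14c was not called without IF replicate 2 or 5 or PBMC replicate 2 or 4, at a log2 fold change of -1.17 to -0.71. All but LOC115487645 and Rny3 were named after their values had been seen. Rnu1a1 split within the PBMC group as Rn7s1 did, at 4.24, 3.51, 1.12, 0.638 and 0.881 TPM in replicates 1 to 5. Its IF range was 2.44 to 5.15 TPM. LOC115487842, another small nuclear RNA among the 10 DEGs and also named afterwards, was at 4.40, 3.76, 1.10, 0.638 and 0.881 TPM in the same PBMC mice. Whether it shares reads with Rnu1a1 was not tested. With such near-identical entries, the 10 DEGs do not count as independent genes. With the TPM recomputed over protein-coding genes alone, an alternative chosen after seeing the data, 50 DEGs remained among 14907 genes, 18 higher and 32 lower.

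The lower DEGs were carried unequally by the mice. Of the 53 lower DEGs, PBMC replicates 1 to 4 were below every IF mouse in 38, 40, 41 and 44, while PBMC replicate 5 was so in 22 and was the highest PBMC mouse in 30. IF replicate 1 was above every PBMC mouse in 16, against 30 to 50 for the other IF mice. PBMC replicate 5 correlated more closely over all genes with the IF mice (mean r = 0.984, across genes) than with the other PBMC mice (0.982). IF replicate 1 correlated more closely with the PBMC mice (0.989) than with the other IF mice (0.985), as did IF replicate 3 (0.981 against 0.980). By the distance to the rest of their group, IF replicate 3, PBMC replicate 5 and IF replicate 5 stood farthest out of the 10, at 0.494, 0.487 and 0.454, against 0.296 to 0.369 for the other mice, among them IF replicate 1. Without PBMC replicate 5 there were 143 DEGs and 2726 called genes, and without IF replicate 1 there were 148 DEGs, and 2 genes passed adjustment (Slc2a1 and 4930539E08Rik, limma). The labels give no reason to leave either mouse out.

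**Figure D5:**
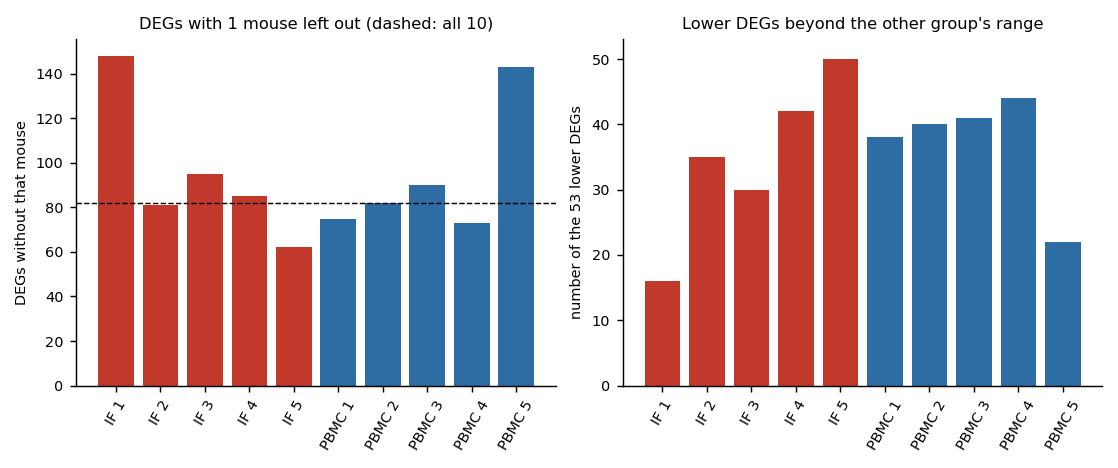
Number of DEGs between PBMC and IF with the named mouse left out, against the 82 with all 10 mice (left), and number of the 53 lower DEGs in which the named mouse lies beyond the range of the other group (right). The counts are highest with IF replicate 1 (148) or PBMC replicate 5 (143) left out, and these mice lie beyond the other group in the fewest lower DEGs (16 and 22).

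Over all genes, neither of the first 2 components separated the groups at 0.05 with all 10 mice. On the first principal component of the 10 mice (34.0% of the variance), PBMC mice lay at 9.73 ± 27.3 and IF mice at -9.73 ± 27.8 (mean ± SD), and a two-sided exact permutation test gave p = 0.286. On the second (16.7%), the PBMC mice lay higher by 1.13 SD of the component (exact p = 0.0556, where the smallest possible value is 0.00794). That result depended on single mice, since the exact p on the second component was 0.00794 without IF replicate 1, the smallest possible there, 0.0317 without IF replicate 5 and 0.0476 without IF replicate 4. With PBMC replicate 5 left out it was 0.302, and with IF replicate 3 left out 0.286. The median SD per gene on the log2 scale was 0.195 in the PBMC, 0.215 in the IF, 0.230 in the control and 0.164 in the PBMC-hCG group.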

How the data were processed

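Poly(A) RNA of 1 uterine horn per mouse was sequenced, and the authors deposited TPM (length-corrected abundance, scaled to one total) for 45777 genes in 20 libraries, made with Trimmomatic, HISAT2 and StringTie on mm10 (versions not given in the sources used here). Library totals were 999989 to 999999. TPM keep no read depth, so no counting error was computed. The comparison was PBMC against IF, 5 mice each, by label. The members and the gene lists were chosen with earlier results of these data known.

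Tests used 18706 genes, those with a TPM above 0 throughout, as log2(TPM + 0.1), a scale that understates changes of low genes. The study's methods name a test for read counts, which TPM are not, so limma 3.58.1 (R 4.3.3) was used instead, with a variance trend, all 4 groups in the fit and Benjamini-Hochberg adjustment. The script was tested on simulated data. DEGs differed at least 2-fold with a raw p under 0.05. Named genes were the 12 largest rises and falls among DEGs with a mean of at least 1 TPM, the 5 smallest p-values per direction, up to 6 called genes per list, and a set named whatever their values (among them the steroid receptors and reference genes). Some genes that the rule names are not reported here. Others are said to be named after their values were seen. Exact permutation tests were run in R, over 252 arrangements with all 10 mice and 126 with a mouse left out. Python 3.11.15 with numpy 2.4.6, pandas 2.3.3 and matplotlib 3.10.9 made tables and figures. Alternatives changed the pseudocount, filter, scaling, fold threshold, weights, replicate block and mice included. Gene positions and upstream sequences came from RefSeq (GRCm38.p6).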

Additional observations from a re-analysis of the deposited data

Results flagged for a closer look

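Among the named genes, 182 groups of 5 mice were examined for a mouse that stood apart from the others of its group, by the gap to its nearest neighbour as a share of the group's range. Values above the 95% limit of Dixon for 5 samples were noted, and chance gives about 1 in 20 groups. There were 9, of which 4 were PBMC replicate 5, 3 IF replicate 3, and 1 each PBMC replicate 3 and PBMC replicate 4. PBMC replicate 5 was the highest of its group for Slc7a5 (a share of 0.801), Il17ra (0.788), P2ry14 (0.749) and Adm (0.728). IF replicate 3 was the highest for Rplp0 (0.751) and ccdc198 (0.729) and the lowest for Ihh (0.776), which was at 8.02 TPM there. PBMC replicate 4 was the lowest for Rfx2 (0.825), though still above every IF mouse, and PBMC replicate 3 the lowest for Insig1 (0.739).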

How the results depend on the processing

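The 82 DEGs (29 higher, 53 lower) became 139 with a pseudocount of 0.01 (71 higher), 35 with 1 (9 higher, 26 lower), 296 with no filter on low values (128 and 168, 1 passing adjustment), 364 at a fold change of 1.5 (188 and 176), 142 with array weights (66 higher, 34 passing adjustment, 4114 with a raw p under 0.05) and 50 over protein-coding genes alone (18 and 32), the last chosen after seeing the data. With 1 mouse left out there were 62 (without IF replicate 5) to 148 DEGs (without IF replicate 1), 20 to 75 higher, 35 to 83 lower, 0 to 2 passing adjustment and 773 to 2726 with a raw p under 0.05. PBMC-hCG against PBMC gave 68 DEGs with a pseudocount of 1 and 105 to 264 with a PBMC mouse left out, against 167. On the 500 most variable genes the difference on the first component was 1.20 SD (exact p = 0.0476), and that on the second reversed to -0.245, as it did to -0.122 for genes with a mean of at least 1 TPM. With a mouse left out the second ranged from 0.759 to 1.40 SD, against 1.13. Why these values moved was not tested.

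The labels do not say that replicate numbers pair the mice, and they were not used as pairs. Deviations of same-numbered IF and PBMC mice correlated at 0.0914, 0.0305, -0.194, -0.186 and 0.457. The last was the highest of all pairs of an IF and a PBMC mouse, so these values do not settle whether the numbers carry a pairing. With a replicate block there were 84 DEGs, none passing adjustment by limma, and 1414 genes with a raw p under 0.05. For the 89 named genes, 1639 of 1854 alternative values kept direction and side of the threshold, 193 lost the call, 7 gained it and 15 reversed, all in genes that were not called. Ihh was -0.0484 with array weights and -0.149 to 0.531 with a mouse left out, the lowest without IF replicate 3. Esr1 was 0.00903 with array weights. Wnt4 was -0.389 at the lowest and 0.159, 0.0451 and 0.165 without IF replicate 5, PBMC replicate 1 and PBMC replicate 4. Gapdh was 0.0183 after quantile normalization and -0.112 at the lowest and 0.00968, 0.00178, 0.0666, 0.0259 and 0.0180 without IF replicates 2, 4 and 5 and PBMC replicates 1 and 4. Rplp0 was -0.0206 after median centring and -0.00200 and -0.00930 (highest 0.0345) without IF replicate 2 and PBMC replicate 4. Depth is unknown, so the precision of low genes cannot be stated.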
